A study of Mus musculus with 11 samples.

Results

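A set of 10 genes of the major histocompatibility complex (MHC) and of antigen presentation were followed in RNA from LSKs, the Lin-Sca1+Kit+ bone marrow cells that hold HSCs and multipotent progenitors. The genes were taken by symbol from the count table, and all 10 named genes were found among its 12647 genes. They form 2 groups of 5, MHC class I with its peptide transporters (H2-K1, H2-D1, B2m, Tap1, and Tap2) and MHC class II with its partners (H2-Aa, H2-Ab1, H2-Eb1, Cd74, and Ciita). The 3 genotypes were compared with 3 libraries each. The p53+/+ mice carried the humanized p53 knock-in allele (HUPKI) without the mutation, the p53R248W/+ mice were heterozygous for the R248W mutation on that allele, and the p53-/- mice lacked p53. The labels give the C57BL/6 background for all groups, and the methods describe the mice as 8 to 12 weeks old. No treatment is named for these cells. The sources used here do not say whether each library came from a separate mouse or a pool, so p-values measure only the spread between these libraries, which may be technical.

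MHC class I molecules are made by nearly all nucleated cells. H2-K1 and H2-D1 are the heavy chains, B2m is the light chain that both need, and Tap1 and Tap2 together form the pump that carries peptides from the cytosol to them. MHC class II molecules are best known from B cells, dendritic cells, and macrophages, where an alpha chain (H2-Aa) pairs with a beta chain (H2-Ab1), Cd74 (the invariant chain) escorts the pair, and Ciita is the coactivator that class II promoters depend on. H2-Eb1 is the beta chain of the second class II molecule, whose alpha chain is not made in C57BL/6 mice. Interferon gamma is the classic inducer of both groups.

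The start of 5 of these genes is shown because class I and class II promoters are known for shared short motifs. Whether such motifs bear on the expression values was not tested. Promoter windows from RefSeq on GRCm38.p6, from 250 bases before to 50 bases after a start, were searched for 6 members (H2-K1 with 2 starts). No window was at hand for Tap2, H2-Ab1, Cd74, or Ciita, so these were not searched. Each line gives the 200 bases from 180 before the start to 20 from it, with the matches to any motif in capitals.
H2-K1, chr17:34000328-34000527, minus strand: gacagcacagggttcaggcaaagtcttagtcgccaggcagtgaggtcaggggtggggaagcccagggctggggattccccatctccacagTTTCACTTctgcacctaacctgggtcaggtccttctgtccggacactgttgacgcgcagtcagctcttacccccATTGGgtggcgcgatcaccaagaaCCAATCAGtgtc
H2-D1, chr17:35262914-35263113, plus strand: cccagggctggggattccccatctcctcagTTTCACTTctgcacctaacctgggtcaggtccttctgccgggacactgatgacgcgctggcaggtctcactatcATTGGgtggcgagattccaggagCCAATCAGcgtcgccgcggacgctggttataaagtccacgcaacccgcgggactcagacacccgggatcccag
B2m, chr2:122147507-122147706, plus strand: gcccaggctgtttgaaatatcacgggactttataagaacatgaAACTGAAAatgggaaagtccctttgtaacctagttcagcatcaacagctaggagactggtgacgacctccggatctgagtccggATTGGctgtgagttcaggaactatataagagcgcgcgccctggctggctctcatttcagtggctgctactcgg
H2-Aa, chr17:34287804-34288003, minus strand: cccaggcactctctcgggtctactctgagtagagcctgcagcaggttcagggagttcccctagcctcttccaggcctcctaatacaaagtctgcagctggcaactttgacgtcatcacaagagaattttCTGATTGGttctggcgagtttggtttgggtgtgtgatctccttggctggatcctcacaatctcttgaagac
H2-Eb1, chr17:34305687-34305886, plus strand: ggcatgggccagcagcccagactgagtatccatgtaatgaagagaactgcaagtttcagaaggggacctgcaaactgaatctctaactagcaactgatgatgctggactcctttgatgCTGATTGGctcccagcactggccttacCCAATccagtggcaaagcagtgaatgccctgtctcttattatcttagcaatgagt

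The whole windows were searched on both strands for 4 motifs. CCAAT, the letters bound by NF-Y, was present in all 6 members, beside 37.4% of 32851 promoters of the same length. CTGATTGG, which holds CCAAT read on the other strand so that each match is also a CCAAT match, was present in 5 members and in 4.1% of all promoters. It lay 51 to 44 bases before the start of H2-Aa and 62 to 55 before that of H2-Eb1, and in the opposite orientation 53 to 46 bases before that of H2-D1. Counted from the starts used, it was elsewhere in the other members that hold it. In Tap1 it lay 222 to 215 bases before the start, and in H2-K1, as printed, from 8 to 15 bases after it. Counted from the other start of H2-K1 it lay at -6 to 1. In the whole windows the bases after the match were nearly the same in H2-K1 and H2-D1, so their difference in place reflects the annotated starts. AANNGAAA, a core of interferon response elements, was found in 4 members (H2-K1, H2-D1, B2m, and H2-Aa) and 23.9% of all promoters. TTCNNNGAA, the letters of interferon gamma activated sites, was found in 0 of the 6 windows and in 8.3% of all promoters. A match describes these letters in this window and no site of binding.

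Of the members on GRCm38 (GENCODE M21), H2-K1 (chr17:33996017-34000347), H2-D1 (chr17:35262730-35267499), Tap1 (chr17:34187553-34197225), Tap2 (chr17:34203527-34216321), H2-Ab1 (chr17:34257689-34269419), H2-Aa (chr17:34282744-34287823), and H2-Eb1 (chr17:34305867-34316674) are protein-coding genes of the MHC region. B2m lies at chr2:122147686-122153083 and Ciita at chr16:10480059-10528418. The counts cover exons of a gene as a whole. Among windows of 50 bases along a reference transcript, 14.3% for H2-D1 and 8.79% for H2-K1 also occur in other class I genes, so reads there may have been shared between them. The shares were 12.6% for Tap2 and 6.47% for Tap1, mostly from genes that overlap them on the other strand (Gm15821 and Psmb9), and 0.27% for Ciita, from Dexi. They were 0 for B2m, Cd74, H2-Aa, H2-Ab1, and H2-Eb1.

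Library totals ranged from 18021375 to 29750702 counts, and values are given as CPM, counts scaled to library size with TMM factors between 0.935 and 1.04. All 10 markers of LSKs fixed for this check, among them Kit, Ly6a (Sca1), and Flt3, were measured in every library. Trp53, the gene behind the genotypes, was at 125, 207, and 376 CPM in p53+/+, at 219, 240, and 235 CPM in p53R248W/+, and at 129, 127, and 112 CPM in p53-/- libraries. The p53-/- libraries were below all p53R248W/+ libraries and overlapped with p53+/+ (edgeR adjusted p = 0.113 and 0.0953). A count per gene does not show which part of an allele is read. Cdkn1a (p21), a p53 target, was lower in p53-/- than in p53+/+ libraries with no overlap (8.27 to 17.8 against 43.6 to 67.0 CPM; edgeR quasi-likelihood test with Benjamini-Hochberg adjustment, adjusted p = 0.00914). A pair of libraries, p53+/+ replicate 2 and p53R248W/+ replicate 2, stood apart by the sum of 6 granulocyte genes. These summed to 6384 and 7890 CPM there, to between 1736 and 3788 CPM in the other p53+/+ and p53R248W/+ libraries, and to between 1133 and 1470 CPM in p53-/- libraries. Much of each sum was Mpo, at 3087 and 5776 CPM in the pair and at 1125 to 1456 CPM in p53-/- libraries. In the other p53+/+ and p53R248W/+ libraries Mpo was at 1712 to 3670 CPM, so Mpo alone did not set p53+/+ replicate 2 apart. Ngp, another of the 6, was at 1003 and 584 CPM in the pair and at most at 22.6 CPM in the other libraries. Results without this pair are given for H2-Aa, Ciita, and Irf8, for the members whose direction turned, and for counts of genes called. Other values are given with the pair only.

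In levels per kilobase of the deposited gene length, the class I genes were among the most abundant RNAs of LSKs and Ciita was among the least. B2m ranked first of the 12625 genes tested in each genotype, at 3756 ± 636 CPM per kilobase in p53+/+ libraries (SD, n = 3). H2-K1 followed at 1573 ± 118 (rank 14) and H2-D1 at 829 ± 86.8 (rank 51). The libraries of these 3 genes did not overlap with one another in any genotype.

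The other members lay lower and partly side by side. In p53+/+ libraries Tap2 was at 235 ± 27.8, H2-Ab1 at 164 ± 52.0, Cd74 at 153 ± 46.3, and Tap1 at 136 ± 13.0 CPM per kilobase, with ranks from 366 to 752. Each of these overlapped with its neighbor in that order, so their order is not resolved. H2-Aa (52.5 ± 17.7, rank 2129) and H2-Eb1 (22.3 ± 6.46, rank 4312) came next without overlap, and Ciita was last at 0.932 ± 0.0382 (rank 11217).

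The order was the same in p53R248W/+ libraries. In p53-/- libraries Cd74 (227 ± 96.1 CPM per kilobase) stood above Tap2 (220 ± 42.6), and H2-Aa (109 ± 59.2, rank 1014) reached the range of Tap1 (120 ± 14.7). These neighbors overlapped, so neither change of order is resolved from the spread.

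The class I genes differed little between libraries. H2-K1 was at 2803, 2544, and 2423 CPM in p53+/+, at 2673, 2666, and 2531 in p53R248W/+, and at 2213, 3072, and 2588 in p53-/- libraries. The highest and the lowest value both came from p53-/- libraries, and all 3 genotypes overlapped. Its log2 fold changes were 0.02 for p53R248W/+ and 0.02 for p53-/- against p53+/+, with 95% intervals from -0.32 to 0.36 in both comparisons. Its direction for p53R248W/+ against p53-/- changed with the normalization and is not given.

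H2-D1 had 1588, 1444, and 1287 CPM in p53+/+, 1656, 1414, and 1341 CPM in p53R248W/+, and 1209, 1538, and 1398 CPM in p53-/- libraries. B2m had 3840, 3021, and 2807 CPM in p53+/+, 4337, 3492, and 2903 CPM in p53R248W/+, and 3284, 3795, and 3122 CPM in p53-/- libraries. For both genes the 3 genotypes overlapped, and replicate 1 was the highest library of p53+/+ and of p53R248W/+ while replicate 2 was the highest of p53-/-. The log2 fold changes against p53+/+ were 0.03 (p53R248W/+) and -0.06 (p53-/-) for H2-D1. For B2m they were 0.15 (95% interval -0.25 to 0.55) and 0.08 (-0.33 to 0.48).

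The transporter genes were not read alike in all libraries. Tap1 was at 425, 422, and 357 CPM in p53+/+, at 409, 463, and 332 CPM in p53R248W/+, and at 357, 310, and 396 CPM in p53-/- libraries. Tap2 was at 507, 635, and 615 CPM in p53+/+, at 405, 615, and 531 CPM in p53R248W/+, and at 524, 455, and 663 CPM in p53-/- libraries. Where H2-K1, H2-D1, and B2m were highest in a genotype, Tap2 was lowest, in all 3 genotypes, and the genotypes overlapped for both transporters. For p53-/- against p53+/+ the log2 fold change was -0.18 for Tap1 (95% interval -0.56 to 0.20) and -0.10 for Tap2 (-0.54 to 0.34).

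Over the 5 class I members, the 95% intervals reached from 0.652-fold to 1.47-fold for p53R248W/+ and from 0.678-fold to 1.4-fold for p53-/- against p53+/+. Changes outside these bounds lie outside the intervals of every one of the 5 genes, and smaller ones are not resolved by these libraries.

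**Figure D1:**
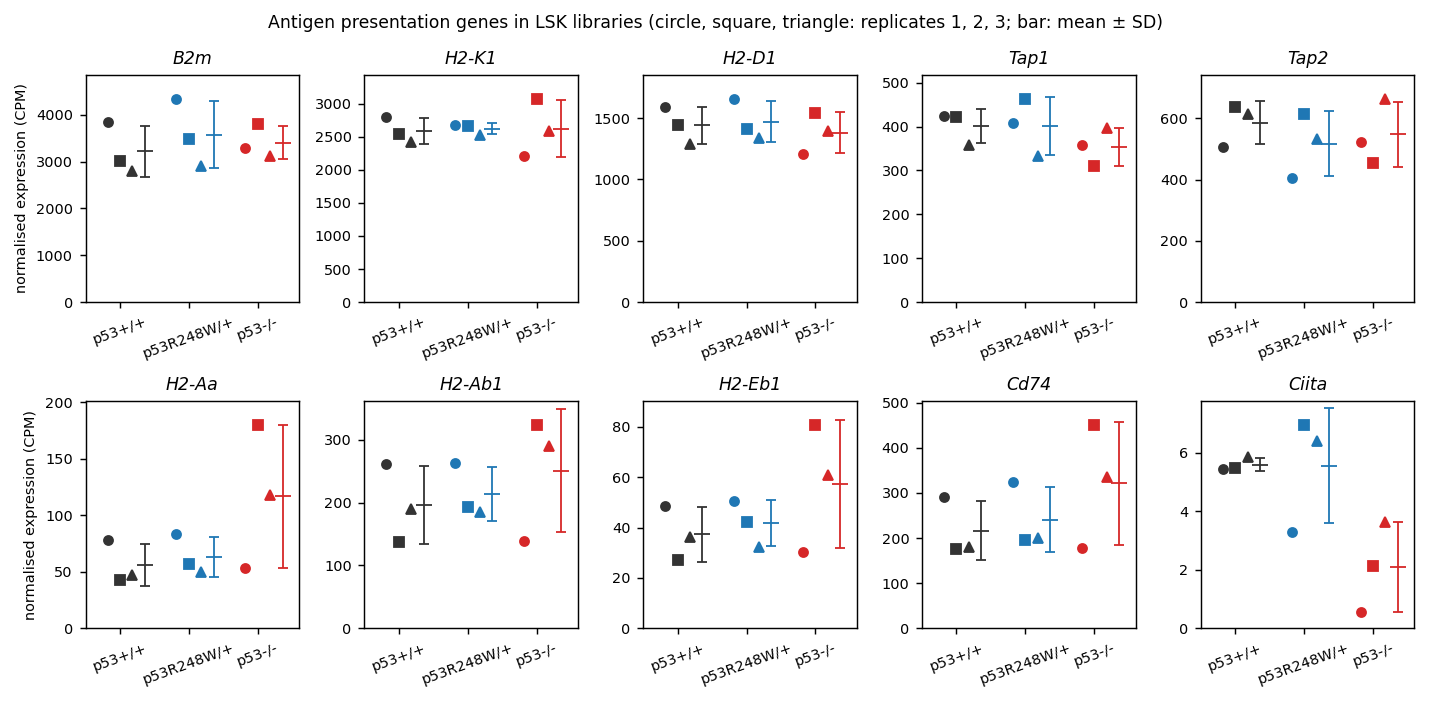
Normalized expression (CPM, y axes from 0, a scale for each gene) of the 10 members in the 9 LSK libraries; circles, squares, and triangles are replicates 1, 2, and 3, and the bar beside them is the mean ± SD. The class I genes of the upper row overlap between genotypes, H2-Aa reaches 180 and 118 CPM in 2 of the 3 p53-/- libraries, and Ciita is below all p53+/+ libraries in the 3 p53-/- libraries.

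The class II genes varied more, and their variation was shared. H2-Aa was at 77.8, 43.2, and 47.4 CPM in p53+/+, at 83.5, 56.7, and 49.5 CPM in p53R248W/+, and at 53.1, 180, and 118 CPM in p53-/- libraries. Replicates 2 and 3 of p53-/- were above all other libraries, while p53-/- replicate 1 lay within the range of the other genotypes. The log2 fold change was 1.06 for p53-/- against p53+/+ (95% interval 0.22 to 1.89, edgeR unadjusted p = 0.0172, adjusted p = 0.127) and -0.88 for p53R248W/+ against p53-/- (-1.71 to -0.05, edgeR unadjusted p = 0.0386, adjusted p = 0.211). Neither passed the threshold of 0.05 after adjustment. With DESeq2 the first did, at a log2 fold change of 1.07 (adjusted p = 0.0401). Leaving out p53-/- replicate 2 brought it to 0.61 (edgeR adjusted p = 0.399).

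H2-Ab1, which pairs with H2-Aa in the same molecule, was at 261, 137, and 190 CPM in p53+/+, at 264, 194, and 184 CPM in p53R248W/+, and at 139, 323, and 290 CPM in p53-/- libraries. The same 2 p53-/- libraries were the highest, and p53-/- replicate 1 was close to the lowest p53+/+ library. Its log2 fold change for p53-/- against p53+/+ was 0.35 (95% interval -0.32 to 1.03, edgeR adjusted p = 0.522). Leaving out p53-/- replicate 2 brought it to 0.13.

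H2-Eb1 was at 48.6, 27.1, and 36.1 CPM in p53+/+, at 50.6, 42.3, and 32.3 CPM in p53R248W/+, and at 30.2, 80.6, and 60.7 CPM in p53-/- libraries. Cd74 was at 292, 176, and 181 CPM in p53+/+, at 325, 197, and 201 CPM in p53R248W/+, and at 179, 450, and 336 CPM in p53-/- libraries. Both had their highest values in p53-/- replicates 2 and 3, then in replicate 1 of p53+/+ and of p53R248W/+, and the genotypes overlapped. For p53-/- against p53+/+ the log2 fold change was 0.62 for H2-Eb1 (95% interval -0.10 to 1.34) and 0.57 for Cd74 (-0.14 to 1.29). Without p53-/- replicate 2 these were 0.29 and 0.25.

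Ciita, the coactivator of class II genes, had its lowest values in p53-/- libraries. It was at 5.44, 5.48, and 5.86 CPM in p53+/+, at 3.31, 6.93, and 6.40 CPM in p53R248W/+, and at 0.544, 2.12, and 3.63 CPM in p53-/- libraries, which rest on 10, 47, and 74 counts in the last group. The p53-/- libraries were all below the p53+/+ libraries, and 1 of the 3 was above p53R248W/+ replicate 1. The log2 fold change was -1.41 for p53-/- against p53+/+ (95% interval -2.60 to -0.21, edgeR unadjusted p = 0.0245, adjusted p = 0.152). For p53R248W/+ against p53-/- it was 1.39 (0.20 to 2.58, edgeR unadjusted p = 0.0255, adjusted p = 0.173). Neither passed after adjustment, and for p53-/- against p53+/+ the adjusted p ranged from 0.0668 to 0.338 over the alternatives.

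**Figure D2:**
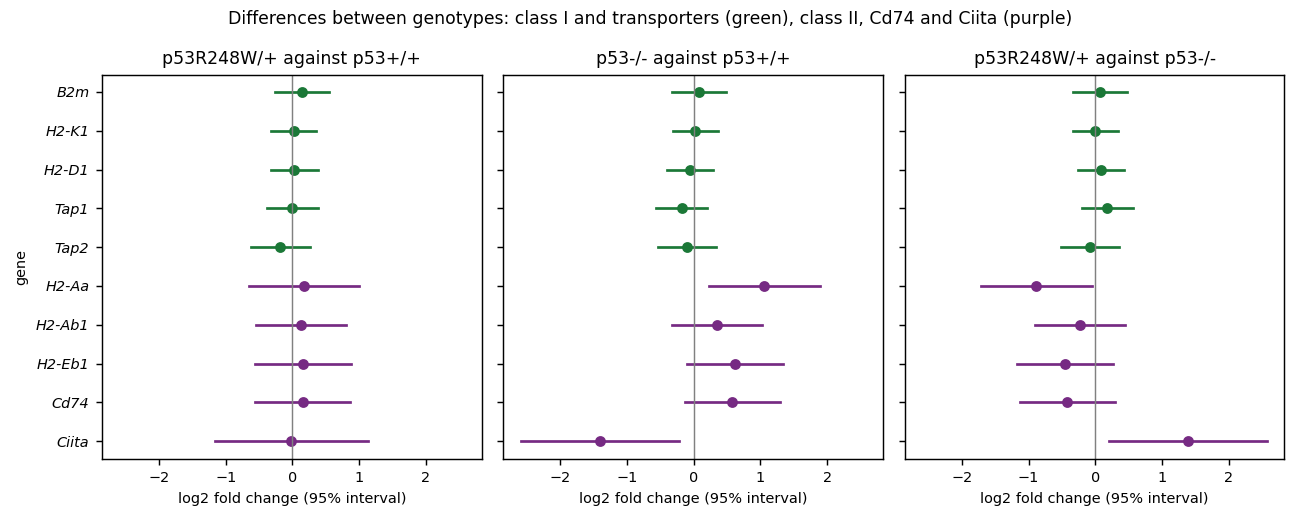
Log2 fold change (x axis) of the 10 members in the 3 comparisons with 95% intervals from edgeR; class I members and transporters are green, class II members, Cd74, and Ciita purple. The class I intervals all cross 0, and in the 2 comparisons with p53-/- the intervals of H2-Aa and Ciita lie on opposite sides of 0, both with adjusted p-values above 0.05.

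No member passed the threshold in any comparison (edgeR, adjusted p below 0.05). For p53R248W/+ against p53+/+, 0 of 10 members passed, beside 0.00792% of all genes tested, and also 0 of 10 at an unadjusted p below 0.05 (0.958% of all genes). None of the 10 had p53R248W/+ libraries apart from the p53+/+ libraries (5.04% of all genes). DESeq2 and limma-voom also called 0 members here. The median log2 fold change of the members was 0.08, beside 0.01 over all genes.

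For p53-/- against p53+/+, 0 of 10 members passed, beside 3.5% of all genes. At an unadjusted p below 0.05 there were 2, H2-Aa and Ciita in opposite directions, beside 23.4% of all genes. Only Ciita had non-overlapping libraries (1 of 10, beside 31.4% of all genes). DESeq2 called 1 member (H2-Aa) and limma-voom 0. These shares are at or below those over all genes. The median log2 fold change was 0.05 for the members and 0.00 for all genes.

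For p53R248W/+ against p53-/-, which shares the p53-/- libraries with the comparison above, 0 of 10 members passed, beside 3.44% of all genes. Again H2-Aa and Ciita were the 2 at an unadjusted p below 0.05 (21% of all genes), and 0 of 10 had non-overlapping libraries (24.2% of all genes). DESeq2 and limma-voom called 0. The median was -0.04 for the members and 0.02 for all genes.

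The spread between libraries of a genotype divided the members in 2 groups. For the class I members and transporters the SD of log2 CPM within genotypes was between 0.15 (H2-K1) and 0.26 (Tap2), below the median of 0.30 over all genes tested. For the class II chains and Cd74 it was between 0.49 (H2-Ab1) and 0.62 (H2-Aa), and for Ciita, with its low counts, 0.66. Between 6.78% (Ciita) and 17.4% (H2-Ab1) of all genes had a larger SD than these 5. Within p53-/-, H2-Aa was 3.38-fold and H2-Eb1 2.66-fold higher in replicate 2 than in replicate 1, beside 1.39-fold for H2-K1.

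This spread was common to the class II chains and Cd74. The sum of these 4 genes was 679, 383, and 454 CPM in p53+/+, 722, 489, and 467 CPM in p53R248W/+, and 402, 1033, and 804 CPM in p53-/- libraries. Replicate 1 was high in p53+/+ and in p53R248W/+ and low in p53-/-. With each gene centered on its mean log2 value over the 9 libraries, the distance of a member from the mean pattern of the 4 (root mean square, log2 units) was 0.08 for H2-Eb1, 0.09 for Cd74, 0.15 for H2-Ab1, and 0.19 for H2-Aa, while the median gene lay at 0.57. These distances come from the genes that make up the mean, and the 9 points share their libraries.

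**Figure D3:**
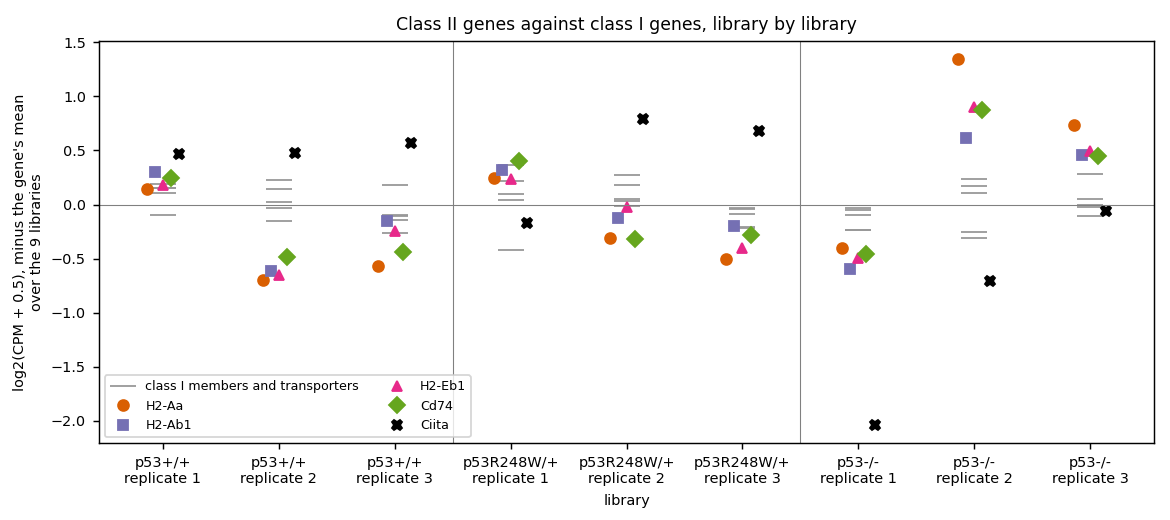
Log2 expression of each member (CPM + 0.5) minus its own mean over the 9 libraries (y axis), for each library (x axis); colored symbols are the class II chains, Cd74, and Ciita, and grey bars the 5 class I members and transporters. The 4 class II genes move together and reach their top in p53-/- replicate 2, while Ciita has its lowest value in p53-/- replicate 1.

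By the same distance over 10692 genes with an average log2 CPM of at least 2, the genes nearest to the class II pattern, apart from its own members, were Ckb (0.19), Chac2, Dync2li1, Armc3, and Klf9 (0.22). Ckb, brain-type creatine kinase, was at 15.4, 10.96, and 10.5 CPM in p53+/+, at 13.8, 11.8, and 10.8 CPM in p53R248W/+, and at 11.8, 22.7, and 18.4 CPM in p53-/- libraries. Its high libraries were those of the class II chains. Nearest to the class I pattern were Tapbpl (0.06), a relative of tapasin that edits class I peptides, then Cd47, Tmem50b, Arpc2, and Psmf1 (0.08). Tapbpl lay between 64.1 and 81.0 CPM in all 9 libraries.

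Markers of the cells best known for class II were given beside this pattern. The 8 of 10 dendritic cell markers in the table summed to 38.8 to 62.9 CPM in p53+/+, 51.3 to 62.0 CPM in p53R248W/+, and 43.1 to 51.1 CPM in p53-/- libraries. The 8 of 10 B cell markers summed to 76.8 to 130, 99.0 to 138, and 92.4 to 107 CPM in the same order, most of it from Cd79b, and Ms4a1 was at 0 counts in 2 libraries. In neither sum did p53-/- replicates 2 and 3 stand above the other genotypes. For p53-/- against p53+/+, 2 of the 8 B cell markers had positive and 6 negative log2 fold changes (median -0.57). At an unadjusted p below 0.05 (edgeR), 0 B cell markers were higher and 2 lower, beside 23.4% of all genes in either direction. After adjustment 0 passed. The dendritic cell sum came mostly from Ccr7, Ccr9, and Clec10a. For p53-/- against p53+/+, 3 of the 8 dendritic cell markers had positive and 5 negative log2 fold changes. At an unadjusted p below 0.05 (edgeR), 1 was higher and 1 lower, beside 23.4% of all genes in either direction, and 0 passed after adjustment. Clec10a was at 4.65 to 7.17 CPM in p53-/- and 8.52 to 13.6 CPM in p53+/+ libraries. Zbtb46, a transcription factor of classical dendritic cells picked from the list by its values, was at 1.96, 3.25, and 2.95 CPM in p53-/- libraries (36, 72, and 60 counts). It was at most at 1.37 CPM in the others, and highest in the same replicates 2 and 3 as the class II chains (log2 fold change 1.90 for p53-/- against p53+/+, edgeR adjusted p = 0.0618).

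Of the monocyte and macrophage markers, all 10 were in the table and summed to 150 to 251 CPM in p53+/+, 124 to 281 CPM in p53R248W/+, and 139 to 176 CPM in p53-/- libraries. Most of the sum came from Ly6c2 (mean 103 CPM in p53+/+ and 71.2 CPM in p53-/-) and Csf1r (63.5 and 44.9 CPM). Both overlapped between these genotypes. For p53-/- against p53+/+, 7 of the 10 had positive and 3 negative log2 fold changes. At an unadjusted p below 0.05, 3 were higher and 1 lower, beside 23.4% of all genes in either direction, and 0 passed after adjustment (edgeR). The members of the list did not vary alike. Csf1r had its lowest value of all 9 libraries, 17.9 CPM, in p53-/- replicate 2, and Cx3cr1 was at 2.61 to 3.39 CPM in p53-/- and 5.02 to 9.46 CPM in p53+/+ libraries. The complement genes, picked from the list after their values were seen, were highest in p53-/- replicates 2 and 3. C1qb was at 6.20, 8.67, and 5.63 CPM in p53+/+, at 3.99, 7.32, and 1.65 CPM in p53R248W/+, and at 7.34, 19.7, and 11.3 CPM in p53-/- libraries. C1qa and C1qc had their highest values in the same pair of libraries, and C1qa (log2 fold change 1.45 for p53-/- against p53+/+) did not pass (edgeR adjusted p = 0.151). Their part in the class II values was not tested. In bulk RNA, more cells of a type and more RNA per cell cannot be told apart. The T and NK cell markers (4 of 8 in the table) summed to 314 to 332, 321 to 417, and 204 to 278 CPM in p53+/+, p53R248W/+, and p53-/- libraries. Almost all of this came from Nkg7 (308 to 328, 314 to 407, and 197 to 267 CPM in the same order). Of the 4, 2 had positive and 2 negative log2 fold changes for p53-/- against p53+/+. The erythroid markers (2 of 6) summed to 0.554 to 36.7, 2.93 to 13.5, and 9.41 to 61.5 CPM in the same order.

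Without the pair of granulocyte-rich libraries, the log2 fold change for p53-/- against p53+/+ was 0.90 for H2-Aa (edgeR adjusted p = 0.35) and -1.42 for Ciita (edgeR adjusted p = 0.325), where the spread came from fewer libraries. The number of all genes called in this comparison was 59 instead of 442.

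The ratios of H2-Aa to the other class II genes separated the p53-/- libraries from the others, while the level of each gene overlapped. The ratio of H2-Aa to H2-Ab1 per kilobase was 0.332, 0.351, and 0.278 in p53+/+, 0.354, 0.327, and 0.300 in p53R248W/+, and 0.425, 0.621, and 0.453 in p53-/- libraries. All p53-/- libraries were above all others, also replicate 1, in which both chains were low. On the log2 scale the mean was -1.02 in p53-/- and -1.65 in p53+/+ libraries, a difference of 0.63 (two-sided exact permutation test, p = 0.1, the smallest that 3 against 3 libraries allow; adjusted p = 0.429 over 30 ratio comparisons). The ratio was taken up after the values had been seen, so this is a description.

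H2-Aa was also higher relative to H2-Eb1 and to Cd74 in every p53-/- library than in any other library. The log2 differences from p53+/+ were 0.39 and 0.42 (exact permutation p = 0.1 and adjusted p = 0.429 for each). The 3 ratios share the values of H2-Aa, so they are not separate observations. How often ratios of other gene pairs separate the p53-/- libraries was not tested. The ratios without H2-Aa did not separate p53-/- from both other genotypes. H2-Eb1 to H2-Ab1 differed by 0.23 on the log2 scale between p53-/- and p53+/+ without overlap (exact permutation p = 0.1, adjusted p = 0.429). It overlapped between p53R248W/+ and p53-/- (exact permutation p = 0.3). Cd74 to H2-Ab1 overlapped in both comparisons (exact permutation p = 0.2 for each). Between p53R248W/+ and p53+/+ the same 3 ratios of H2-Aa overlapped and differed by 0.03, 0.01, and 0.03. The ratio of the class I heavy chains H2-K1 and H2-D1 overlapped in all comparisons and differed by 0.07 between p53-/- and p53+/+ libraries (exact permutation p = 0.3).

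**Figure D4:**
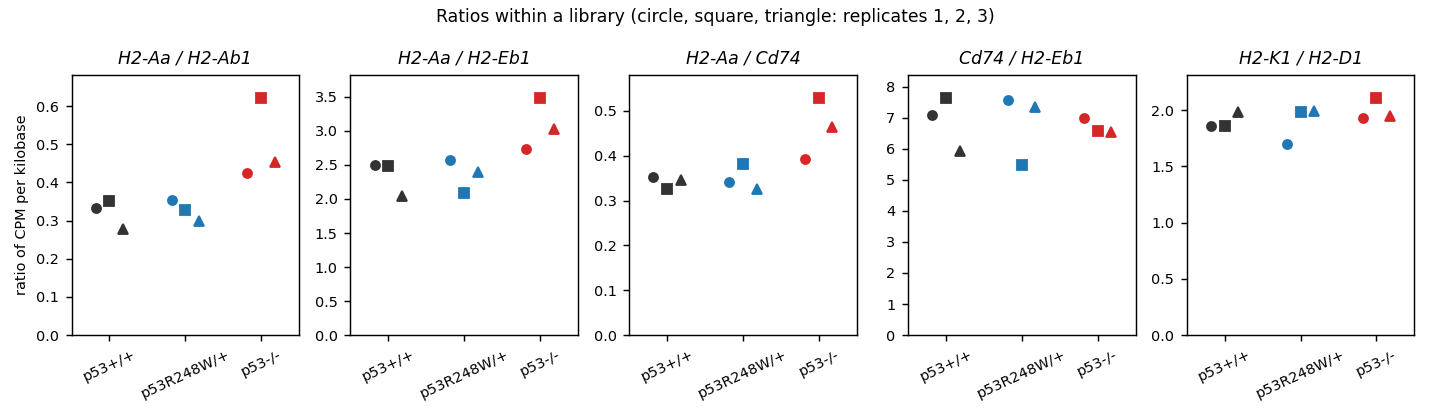
Ratios of CPM per kilobase between pairs of members within each library (y axes from 0; circle, square, and triangle are replicates 1, 2, and 3). H2-Aa over H2-Ab1, H2-Eb1, or Cd74 is higher in all 3 p53-/- libraries than in the other 6, while Cd74 over H2-Eb1 and H2-K1 over H2-D1 overlap between the genotypes.

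The other genes of antigen presentation were taken as a list of 61, of which 48 were tested. For p53R248W/+ against p53+/+, 0 passed the threshold (edgeR; 0 at an unadjusted p below 0.05, and 0 with DESeq2 and with limma-voom). For p53-/- against p53+/+, 0 were higher and 1 was lower. For p53R248W/+ against p53-/-, 2 were higher and 0 were lower. The background shares are those given above for these comparisons.

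The gene called in both comparisons with p53-/- was Irf8, an interferon regulatory factor required for dendritic cell and monocyte development. It was at 218, 250, and 235 CPM in p53+/+, at 298, 365, and 237 CPM in p53R248W/+, and at 108, 82.8, and 125 CPM in p53-/- libraries. The p53-/- libraries were below all others. Irf8 fell in p53-/- against p53+/+ (log2 fold change -1.15, 95% interval -1.60 to -0.71, edgeR adjusted p = 0.0183) and was higher in p53R248W/+ than in p53-/- libraries (log2 fold change 1.51, edgeR adjusted p = 0.00445). The first call was lost in 5 of 18 alternatives: without p53+/+ replicate 2 (edgeR adjusted p = 0.0613), p53+/+ replicate 3 (0.082), p53-/- replicate 1 (0.0622), or p53-/- replicate 2 (0.0668), and without both granulocyte-rich libraries (0.0608). The second was kept in all 18, with edgeR, DESeq2, or limma-voom adjusted p-values up to 0.0258.

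Several nonclassical class I genes were low in p53-/- libraries. H2-Q5 was at 18.6, 18.4, and 20.4 CPM in p53+/+, at 17.03, 19.02, and 26.97 CPM in p53R248W/+, and at 7.67, 10.9, and 12.3 CPM in p53-/- libraries. It was higher in p53R248W/+ than in p53-/- libraries (log2 fold change 1.03, 95% interval 0.48 to 1.58, edgeR adjusted p = 0.0489), a call lost in 11 of 18 alternatives, among them the removal of any 1 library other than p53R248W/+ replicate 1 (edgeR adjusted p from 0.0631 to 0.186), while for p53-/- against p53+/+ it did not pass (-0.89, edgeR adjusted p = 0.0667). H2-K2 (-1.48), H2-T10 (-1.16), and H2-T24 (-0.83) also had p53-/- libraries below all p53+/+ libraries and did not pass (edgeR adjusted p = 0.0756, 0.13, and 0.145). Of the 9 nonclassical and other class I genes tested, these 4 were below and 1, Cd1d1, was above p53+/+ without overlap, beside 31.4% of all genes in either direction. Stretches shared with other class I genes were measured for the members only, not for these genes. How reads shared between genes were counted is not given in the sources used here.

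Class I loading genes (6), which include tapasin (Tapbp) and calreticulin (Calr), and immunoproteasome genes (5), which make peptides for class I, had 0 calls in the 3 comparisons. Their median log2 fold changes for p53-/- against p53+/+ were 0.09 and 0.09. Nlrc5, the class I counterpart of Ciita, was at 49.3, 65.9, and 50.6 CPM in p53+/+, at 19.98, 75.8, and 66.7 CPM in p53R248W/+, and at 24.6, 27.3, and 46.8 CPM in p53-/- libraries. As with Ciita, the p53-/- libraries were all below the p53+/+ libraries and p53R248W/+ replicate 1 was low as well. Its log2 fold change was -0.75 for p53-/- against p53+/+ (edgeR adjusted p = 0.292).

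The class II chaperones and editors (5 tested), class II antigen processing genes (4), and factors of class II promoters (7) had 0 calls. H2-DMa, which helps load peptide on class II molecules, stayed between 320 and 393 CPM in the 9 libraries, with 349 CPM in p53-/- replicate 2, where H2-Aa was highest. H2-Ob, which restrains that step, lay between 133 and 229 CPM. Rfx5 and Creb1, which bind class II promoters, had log2 fold changes for p53-/- against p53+/+ of -0.26 and 0.46 (edgeR adjusted p = 0.519 and 0.12).

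Of 4 costimulation genes listed, 2 were in the table, and both were above p53+/+ in all p53-/- libraries, beside 31.4% of all genes without overlap in either direction. Cd86, a ligand of CD28 on T cells, was at 17.0, 14.6, and 9.87 CPM in p53+/+ and at 21.7, 29.0, and 25.7 CPM in p53-/- libraries (log2 fold change 0.88, edgeR adjusted p = 0.0783). Cd83 was at 3.02, 2.29, and 0.725 CPM in p53+/+ and at 4.68, 9.40, and 5.30 CPM in p53-/- libraries (1.68, edgeR adjusted p = 0.121). Neither passed. Among 9 genes of interferon gamma signaling only Irf8 passed, and Irf1, a transcription factor induced by interferon gamma, had a log2 fold change of -0.01 for p53-/- against p53+/+.

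**Figure D5:**
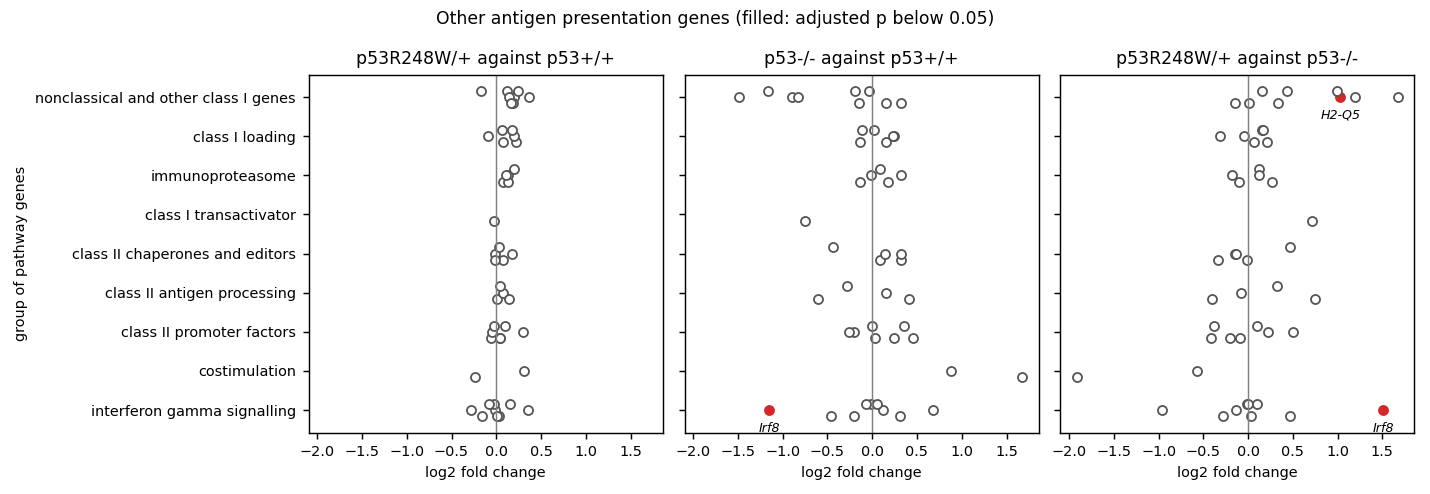
Log2 fold change (x axis) of the 48 other antigen presentation genes, in rows by role, for the 3 comparisons; filled red symbols passed the threshold (edgeR, adjusted p below 0.05). Irf8 lies at -1.15 for p53-/- against p53+/+ and at 1.51 for p53R248W/+ against p53-/-, and H2-Q5 at 1.03 in the latter, while all symbols for p53R248W/+ against p53+/+ lie between -0.28 (Socs1) and 0.36 (H2-T24) and are open.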

How the data were processed

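RNA-seq of LSKs from p53+/+, p53R248W/+, and p53-/- mice gave 9 libraries, 3 for each genotype. The methods describe oligo(dT) selection and random hexamer priming, whereas the labels name a SMART-Seq kit, which does not mark strand. The submitters' processing notes name STAR 2.5.2b, featureCounts of Subread 1.5.0, edgeR, and the build mm10, without roles. The authors deposited raw counts of reads for each gene, and no gene has fewer than 37 over the 9 libraries. The authors also deposited gene lengths, used here for levels per kilobase, and the log2 fold changes and p-values (raw and adjusted) of their own comparisons, which were not read. The ChIP-seq samples were not analysed here.

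Counts were fitted with edgeR 4.0.16 in R 4.3.3 (quasi-likelihood, TMM factors, a filter on low counts with filterByExpr, all 9 libraries in 1 model, Benjamini-Hochberg adjustment over 12625 genes, threshold 0.05), which was tested on simulated data. Intervals of fold changes are 95% intervals from this fit. The SD of a value covers the spread between libraries. Groups came from the labels. Named genes were all 10 members, and pathway genes called or described beside a member. The members and lists were chosen with earlier results of these data known. Other settings tried were limma-voom (limma 3.58.1), DESeq2 1.42.0, its size factors or upper-quartile factors in edgeR, no filter, at least 10 counts in every library, 6 libraries, the replicate block, each library left out, an unadjusted p below 0.05, and, added after seeing the data, both granulocyte-rich libraries left out. Of the values per sample in the table, none were left unused. Positions came from GENCODE M21 and promoters from RefSeq, both on GRCm38. Figures were drawn with matplotlib.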

Additional observations from a re-analysis of the deposited data

How the results depend on the processing

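Of 540 values, the fold changes of the members under 18 alternatives, 500 kept their direction and their side of the threshold, 39 turned their direction, and 1 moved past the threshold (H2-Aa with DESeq2). None of the turned values had passed the threshold, and the largest of their fold changes in the report was 0.17 in size. Tap1 turned for p53R248W/+ against p53+/+ with DESeq2's factors (0.00013) and DESeq2 (0.00011). H2-K1 turned for p53R248W/+ against p53-/- with upper-quartile factors (0.0035), limma-voom (0.013), the strict filter (0.0033), and the replicate block (0.0048). Without both granulocyte-rich libraries H2-K1 (-0.019), H2-Ab1 (-0.024), and H2-Eb1 (-0.043) turned for p53R248W/+ against p53+/+. With each library left out in turn, the log2 fold changes that turned were, with their ranges, for p53R248W/+ against p53+/+ Tap1 (-0.12 to 0.12), H2-Ab1 (-0.077 to 0.39), H2-Eb1 (-0.021 to 0.40), H2-K1 (-0.027 to 0.079), H2-D1 (-0.074 to 0.11), Ciita (-0.21 to 0.24), B2m (-0.022 to 0.30), Cd74 (-0.13 to 0.43), H2-Aa (-0.093 to 0.48), and the pathway gene H2-Q5 (-0.084 to 0.25); for p53-/- against p53+/+ H2-D1 (-0.14 to 0.044), H2-K1 (-0.11 to 0.14), B2m (-0.013 to 0.22), and Tap2 (-0.26 to 0.019); for p53R248W/+ against p53-/- H2-D1 (-0.030 to 0.17), B2m (-0.11 to 0.20), Tap2 (-0.23 to 0.079), and H2-K1 (-0.13 to 0.13).

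For p53R248W/+ against p53+/+, 121 genes passed at an unadjusted p, 6 with DESeq2, 0 with the strict filter, and 2 with the block, instead of 1. For p53-/- against p53+/+ these counts were 2950 unadjusted, 1552 with DESeq2, 894 with 6 libraries, 882 with the block, and 59 without the granulocyte-rich libraries, instead of 442, and from 37 (without p53+/+ replicate 3) to 1485 (without p53R248W/+ replicate 1) with 1 library left out. For p53R248W/+ against p53-/- they were 2657, 1325, 208, 672, and 77 in the same order, instead of 434, and from 77 (without p53R248W/+ replicate 3) to 1559 (without p53R248W/+ replicate 1). Members called were 2 unadjusted and 1 with DESeq2 for p53-/- against p53+/+, and 2 unadjusted for p53R248W/+ against p53-/-. Pathway genes called for p53-/- against p53+/+ were 9 unadjusted, 6 with DESeq2, 3 with the block, 0 without the granulocyte-rich libraries, and 0 to 4 with 1 library left out. For p53R248W/+ against p53-/- they were 10, 6, 4, and 1 in the same order, 1 with limma-voom, 1 with 6 libraries, and 1 to 6 with 1 library left out. The cause of these differences was not tested.

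Replicate numbers were not taken as pairs in the main fit, because the methods name no block. In the labels, p53R248W/+ and p53+/+ libraries of the same number carry names of the same form. The p53-/- libraries carry names of another form. What the names stand for is not given. Deviations of libraries with the same number correlated at 0.44, 0.59, and 0.04 between p53R248W/+ and p53+/+, and from -0.14 to 0.19 in comparisons with p53-/-. Between p53R248W/+ replicate 1 and p53+/+ replicate 2 the correlation was -0.45, and between p53R248W/+ replicate 2 and p53+/+ replicate 1 it was -0.54. Replicates 1 and 2 of these genotypes thus varied together by number, and replicate 3 did not. What they share was not tested. The block changed no call of a member.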
